A study of Mus musculus with 3 samples.

Results

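Homeobox and Pax genes encode the DNA-binding proteins that tell cells of an embryo where they are and what to form. The set described here held every gene of the Hox, Dlx, Msx, Pax, Prrx, Lhx, Pitx, sine oculis-related (such as Six2), Meis, Pbx, Alx and Barx families that had a probe set of its own on the array, chosen by gene symbol alone and not by signal. That gave 74 of 8251 genes, read by 91 probe sets. They fell into 20 facial factors, 31 Hox genes, 5 TALE cofactors (the Meis and Pbx genes), 15 factors known mainly from other organs or the nervous system, and 3 RNAs, Dlx1as, Dlx6os2 and Hoxa11os, that lie antisense to or beside a homeobox gene and encode no homeobox factor. The facial factors were set by a list of named genes, so Msx3, Six5 and Pax1 were placed among the organ and neural factors. That list was chosen with earlier results of these data known. Not all proteins of these genes bind DNA through a homeodomain, since several Pax proteins carry a paired domain with no complete homeodomain.

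RNA came from medial edge epithelium, the cell layer at the tips of the palatal shelves that forms the seam when the shelves meet, in CF-1 mouse embryos at embryonic day 13.5. The 3 groups, with 1 array each, were unfused epithelium taken without culture (0 h), fused epithelium from shelves held together in culture for 12 h, and fused epithelium at 24 h, labelled as undergoing epithelial-mesenchymal transformation. All were freed with the enzyme Dispase II, and the sources used here do not say how many embryos each sample holds. With 1 array a group there is no replicate, error or p-value for any ratio below, and fusion, time and culture cannot be told apart between 0 h and the later arrays.

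In the vertebrate head, the facial prominences and the palatal shelves are filled largely by neural crest mesenchyme, in which Dlx, Msx, Prrx, Alx, Lhx and Barx genes mark position along the jaws and midface. Hox genes, which sit in clusters and are switched on in order along the body axis, pattern the trunk, the hindbrain and the more caudal pharyngeal arches, while the crest of the first arch, the source of the palatal shelves, is known for developing without Hox expression. Meis and Pbx proteins bind DNA together with Hox and other homeodomain proteins. Covering epithelium adds its own factors, such as Pitx1 and Dlx3 in the oral surface and skin.

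Sequences next to the start sites are shown for 4 members whose signals went different ways, Prrx2, Six2, Lhx8 and Hoxd8, so that the differences described further on can be set beside the DNA at the gene's start. Each runs 5′ to 3′ on the gene's strand from 250 bases before to 50 after the start site furthest upstream, from RefSeq on GRCm38.p6. Prrx2 lies at chr2:30845117-30845416 on the plus strand, Six2 at chr17:85688205-85688504 on the minus strand, Lhx8 at chr3:154330511-154330810 on the minus strand and Hoxd8 at chr2:74704365-74704664 on the plus strand. Capitals mark any match, on either strand, to the homeodomain core TAATTA, the TATA box TATAAA, the CCAAT box or the Meis core TGACAG.
Prrx2: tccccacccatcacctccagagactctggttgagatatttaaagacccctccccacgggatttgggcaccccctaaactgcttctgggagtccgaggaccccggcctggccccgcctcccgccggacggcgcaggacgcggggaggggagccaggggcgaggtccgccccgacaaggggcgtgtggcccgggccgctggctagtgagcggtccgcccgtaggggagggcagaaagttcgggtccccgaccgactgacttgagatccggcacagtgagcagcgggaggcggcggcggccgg
Six2: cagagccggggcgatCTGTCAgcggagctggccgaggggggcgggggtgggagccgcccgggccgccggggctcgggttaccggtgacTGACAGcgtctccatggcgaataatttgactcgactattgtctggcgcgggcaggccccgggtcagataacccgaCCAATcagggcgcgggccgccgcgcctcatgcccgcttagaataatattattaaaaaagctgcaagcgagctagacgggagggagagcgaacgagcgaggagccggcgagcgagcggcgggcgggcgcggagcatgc
Lhx8: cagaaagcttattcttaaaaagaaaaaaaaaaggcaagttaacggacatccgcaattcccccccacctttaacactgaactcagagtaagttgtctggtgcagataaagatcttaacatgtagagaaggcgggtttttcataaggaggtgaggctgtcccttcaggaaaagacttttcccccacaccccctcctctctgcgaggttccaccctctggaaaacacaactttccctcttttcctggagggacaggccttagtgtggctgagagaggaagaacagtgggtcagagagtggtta
Hoxd8: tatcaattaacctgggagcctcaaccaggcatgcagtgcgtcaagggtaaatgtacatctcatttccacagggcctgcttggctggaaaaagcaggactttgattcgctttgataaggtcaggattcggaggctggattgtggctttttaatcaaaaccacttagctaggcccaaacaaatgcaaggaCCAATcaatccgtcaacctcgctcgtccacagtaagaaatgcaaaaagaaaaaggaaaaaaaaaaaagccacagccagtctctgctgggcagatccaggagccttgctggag

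The Six2 window held 2 matches to the Meis core and 1 to the CCAAT box, and the Hoxd8 window 1 CCAAT box, whereas none of the 4 motifs occurred in the Prrx2 and Lhx8 windows. Across all 32851 windows of the RefSeq table, the Meis core occurred in 19.2%, the CCAAT box in 37.4%, the TATA box in 13.6% and the homeodomain core in 5.29%. Windows were found for 49 of the protein-coding members. Among these, the Meis core occurred in 9, the CCAAT box in 28, the TATA box in 5 and the homeodomain core in 3. CG dinucleotides numbered 28 in the Prrx2 window, 37 in that of Six2, 4 in that of Lhx8 and 6 in that of Hoxd8. The median was 24.5 over the 12 facial factors with a window, 13.5 over the 20 Hox genes with one and 7 over all windows. These are letter matches, not binding sites.

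Signals are linear intensities, multiplied array by array so that the trimmed means were equal, and a signal of 13.5, the 40th percentile of all scaled signals, served as the floor under which differences were not read. A gene under the floor on both arrays of a comparison has no ratio, and where 1 of the arrays lay under it the other was set against the floor, which gives a smallest possible fold, worded with "at least". Probe sets differ in how strongly they bind their target, so signals are compared between arrays for the same probe set and not between genes. As a measure of technical error, the log2 ratio of a probe set scattered about the mean of its gene with an SD of 1.24 in the ratios of 12 h over 0 h (672 genes with several measured sets), 0.82 in those of 24 h over 12 h (687 genes) and 1.07 in those of 24 h over 0 h (748 genes). A 2-fold difference therefore lies within 1 SD of that scatter in the comparisons with 0 h. The ratio of 3′ to 5′ signal of Gapdh, a control for RNA length, was 0.828 on the 0 h array, 14.9 on that of 12 h and 12.6 on that of 24 h. The same ratio for Actb was 1.02, 11.9 and 2.97, highest at 12 h, and the part of this difference between arrays in any ratio below was not tested.

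The facial factors were mostly detectable and the Hox genes mostly were not. Of 20 facial factors, 16 lay above the floor on at least 1 array (80.0%), as did 15 of 31 Hox genes (48.4%) and 79.6% of all genes. On all 3 arrays it was 12 facial factors, 8 Hox genes, 3 of 5 TALE cofactors, 3 of 15 organ and neural factors and none of the antisense RNAs, or 60% of facial factors and 25.8% of Hox genes beside 56.7% of all genes. In all, 30 of the 74 members lay under the floor on every array. A probe set under the floor may bind poorly, so this does not show that the gene was silent.

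**Figure D1:**
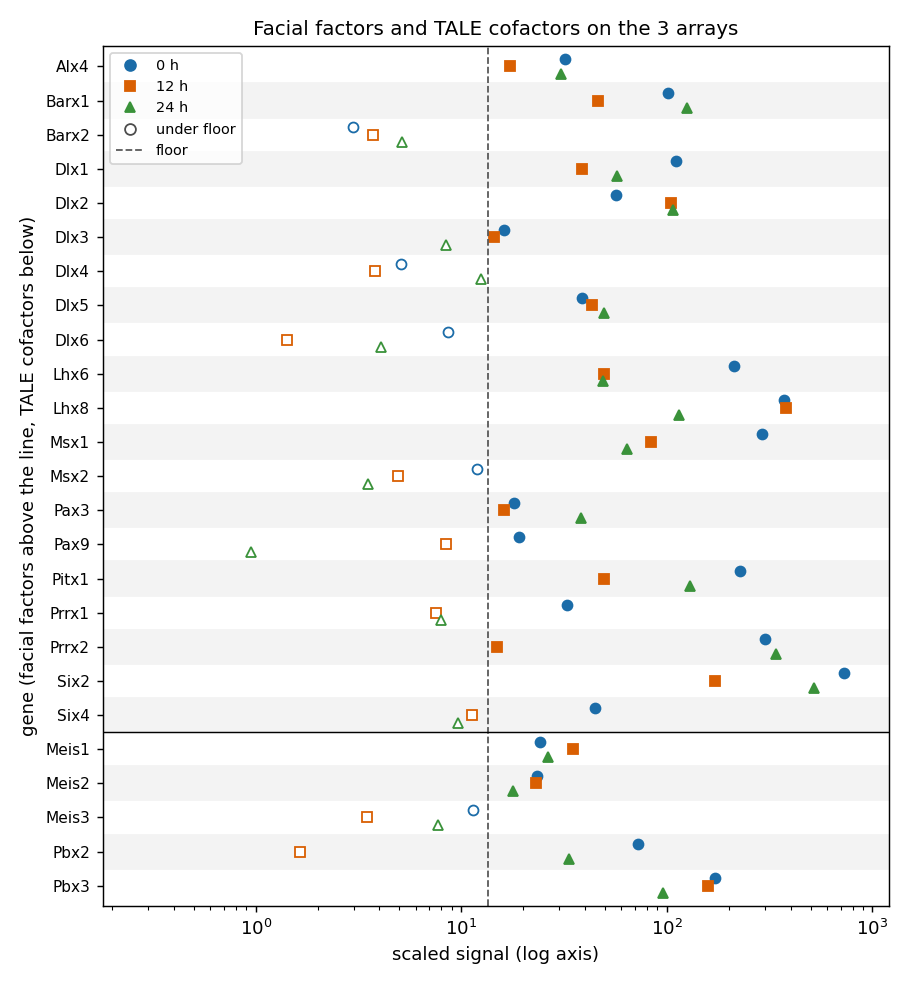
Scaled signal (log axis) of the 20 facial factors and 5 TALE cofactors at 0, 12 and 24 h, 1 array each, with open symbols under the floor of 13.5 (dashed line). Six2, Prrx2, Pitx1 and Barx1 were high at 0 h and 24 h and lower at 12 h, whereas Msx1 and Lhx6 were high at 0 h alone.

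Prrx2, a paired-related homeobox gene of craniofacial and limb mesenchyme, had a signal of 299 at 0 h, one of 14.9 at 12 h and one of 341 at 24 h. The 12 h signal stood only just above the floor. Its close relative Prrx1 had 32.8 at 0 h and lay under the floor at 12 h and 24 h, so the relatives differed on the last array. Six2, a factor of kidney progenitors and of facial mesenchyme, had signals of 724, 171 and 519 at 0, 12 and 24 h. Pitx1, expressed in the oral ectoderm and known for its part in jaw and hindlimb form, gave 228, 49.4 and 130.3. For Barx1, a factor of molar and stomach mesenchyme, the signals were 101, 46.4 and 126. All 4 of Prrx2, Six2, Pitx1 and Barx1 had their lowest signal on the 12 h array.

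A different course was seen for Msx1, whose loss in mice causes cleft palate and missing teeth. Its signals were 289.7 at 0 h, 83.9 at 12 h and 64.3 at 24 h. Lhx6, a LIM homeobox gene of the jaw primordia, likewise gave 213 at 0 h but 49.7 at 12 h and 49.1 at 24 h. Its relative Lhx8, which is needed for closure of the palate in mice, had signals of 371 and 379 at 0 h and 12 h and 115 at 24 h, so that it was lower on the last array only. Six4, of the same family as Six2, had 44.9 at 0 h and lay under the floor on the later arrays. Pax9, a paired-box gene required for palate and teeth in mice, was weak, with 19.1 at 0 h and signals under the floor at 12 h and 24 h.

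The Dlx genes come as adjacent pairs, and members of a pair often share expression in the pharyngeal arches. Dlx1 had signals of 111, 38.7 and 57.1 at 0, 12 and 24 h, while its neighbour Dlx2 had 56.4, 105 and 107. The neighbours thus lay on opposite sides of their 0 h signals on both later arrays, but of these differences only that of Dlx1 at 12 h reached 2-fold, and as deposited Dlx2 at 24 h over 0 h had a log2 ratio of -0.09, on the same side as Dlx1. Dlx5 gave 38.5, 43.2 and 49.6, and its neighbour Dlx6 stayed under the floor throughout. Dlx3, a factor of surface ectoderm and its appendages, was close to the floor at 16.2 and 14.4 at 0 h and 12 h and under it at 24 h. Alx4, a midfacial factor, had 31.9, 17.3 and 30.4. Pax3, a marker of neural crest and muscle precursors, had 18.0, 16.1 and 38.4 and was highest at 24 h. Barx2, Dlx4, Dlx6 and Msx2 were under the floor on all 3 arrays.

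At 12 h against 0 h, lower signals were frequent among facial factors, and the difference between the lists has no replicate to test it. None of the 16 facial factors with a ratio was at least 2-fold higher at 12 h and 9 were at least 2-fold lower, with a median log2 ratio of -1.20. Of 12 Hox genes with a ratio, 2 were higher and 1 was lower, with a median of -0.12. A gene with a 0 h signal under 2 times the floor could not be counted as 2-fold lower. Among these Hox genes that held for Hoxa5, Hoxb1, Hoxb5, Hoxb6, Hoxc4, Hoxc8 and Hoxd8, and among the facial factors for Dlx3, Pax3 and Pax9. The same limit holds in the later comparisons for a weak signal on the earlier array. In every comparison, a signal under 2 times the floor on the later array likewise kept a gene from being counted as 2-fold higher. Over all 6379 genes with a ratio, 17.7% were at least 2-fold higher, 27.3% at least 2-fold lower, and the median was -0.21. The medians of facial factors and Hox genes differed by -1.08, or by -0.76 when all members of the facial families were counted as facial factors. Over genes measured on both arrays they were -1.12 for 13 facial factors and -0.12 for 8 Hox genes.

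The ratio furthest from 0 was that of Prrx2, which was 20-fold lower at 12 h. Pitx1 was 4.61-fold, Lhx6 4.29-fold, Six2 4.24-fold, Msx1 3.45-fold, Dlx1 2.86-fold and Barx1 2.17-fold lower. Bounds were at least 3.32-fold lower for Six4 and at least 2.42-fold lower for Prrx1. Dlx2 (log2 0.90), Dlx5 (log2 0.16) and Lhx8 (log2 0.03) were the facial factors with ratios above 0, and none of them was 2-fold different. Among the rest, Six5, a relative of Six2 expressed in muscle and eye, was at least 5.57-fold lower and Pbx2 at least 5.34-fold lower. In all, 3 members were at least 2-fold higher and 12 lower out of 41 with a ratio. At 3-fold the members numbered 1 higher and 8 lower, beside 9.56% and 15.2% of all genes.

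**Figure D2:**
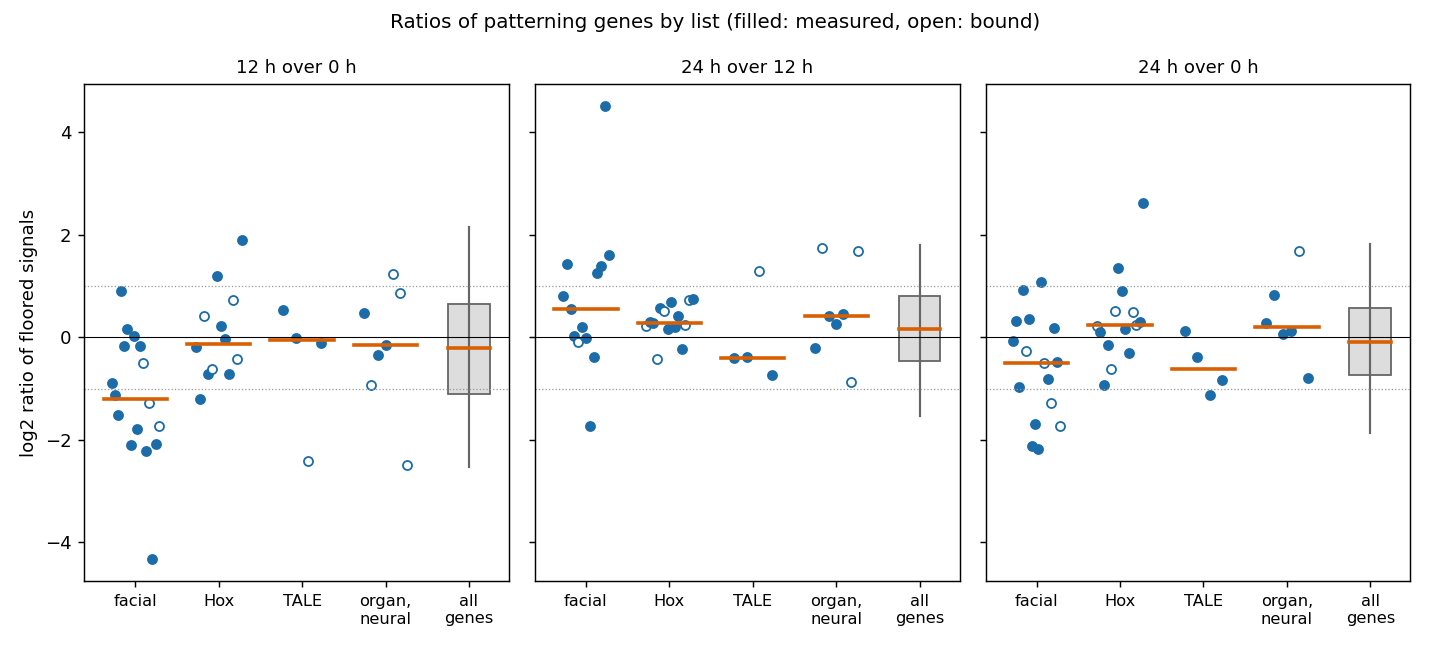
Log2 ratio of each patterning gene in the 3 comparisons, by list, with filled points for ratios measured on both arrays, open points for bounds orange lines for medians, and for all genes a box over the quartiles with a line over the 5th to 95th percentile. Facial factors have a median of -1.20 for 12 h over 0 h, against -0.12 for Hox genes and -0.21 for all genes.

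Between 24 h and 12 h, facial factors were more often higher. Of 13 facial factors with a ratio, 5 were higher by 2-fold or more at 24 h and 1 was lower by as much, with a median log2 ratio of 0.56, and none of 14 Hox genes was 2-fold different either way, with a median of 0.29. No gene with a 24 h signal under 2 times the floor could be counted as 2-fold higher. Of these Hox genes that held for Hoxa5, Hoxa11, Hoxb13, Hoxc4, Hoxc5 and Hoxc8, and of the facial factors for Dlx3. Over all 6141 genes, 18.8% were higher and 12.0% lower, with a median of 0.17. The difference of the medians, 0.27 for facial factors minus Hox genes, turned to -0.09 and -0.08 with the floor at the 20th and 60th percentile, so it gave no stable order of the lists. Prrx2 was 22.8-fold, Six2 3.04-fold, Barx1 2.71-fold, Pitx1 2.64-fold and Pax3 2.38-fold higher at 24 h. Lhx8 was 3.29-fold lower. Higher bounds belonged to Msx3, a gene of the dorsal neural tube (at least 3.36-fold), Six5 (at least 3.22-fold) and Pbx2 (at least 2.47-fold). All members together made 8 higher and 1 lower of 40, and at 3-fold 4 higher and 1 lower, beside 7.41% and 4.58% of all genes. This comparison and the one before it share the 12 h array, so a deviation of that array enters both with opposite sign.

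Against 0 h, the 24 h array had 1 of 16 facial factors higher by 2-fold or more and 5 lower (median log2 ratio -0.49), and 2 of 14 Hox genes higher and none lower (median 0.24). The shares over all 6392 genes were 14.5% higher and 17.7% lower, with a median of -0.08. The facial median includes bounds for Dlx3, Pax9, Prrx1 and Six4, whose 24 h signals lay under the floor. For genes measured on both arrays, the medians were -0.28 for 12 facial factors and 0.16 for 9 Hox genes. Msx1 was 4.51-fold, Lhx6 4.34-fold and Lhx8 3.22-fold lower at 24 h, with bounds of at least 3.32-fold for Six4 and at least 2.42-fold for Prrx1. Pax3 was 2.13-fold higher. By contrast Prrx2 (log2 0.19), Barx1 (log2 0.32), Six2 (log2 -0.48) and Pitx1 (log2 -0.81) were less than 2-fold different. The value of Barx1 is from a probe set with the suffix _f_at. By its other set, without a suffix, Barx1 was 2.22-fold lower (log2 -1.15). Members as a whole numbered 4 higher and 6 lower of 40, and at 3-fold 2 higher and 4 lower, beside 6.63% and 7.76% of all genes.

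The scaling between arrays shifts most ratios of a comparison in the same direction, though quantile normalization moves genes unequally. With the values as deposited, the median log2 ratio of all genes was -0.83 for 12 h over 0 h, -0.12 for 24 h over 12 h and -0.98 for 24 h over 0 h. The share of 2-fold different members that were higher was 20% for 12 h over 0 h, 88.9% for 24 h over 12 h and 40% for 24 h over 0 h. It was 4.76%, 75.0% and 9.52% as deposited, 33.3%, 70.0% and 54.5% after median centring, and 37.5%, 77.8% and 54.5% after quantile normalization, in the same order of comparisons. Several members crossed the 2-fold line between scalings. As deposited, the log2 ratio of 24 h over 0 h was 0.09 for Pax3 and 0.35 for Hoxb5, in place of 1.09 and 1.36. Barx1 was then represented by its other probe set, with -4.26 as a bound for 12 h over 0 h and -2.16 for 24 h over 0 h, the opposite sign to its 0.32. Lhx8, at 0.03 for 12 h over 0 h, had -0.66 as deposited and -0.22 after quantile normalization, and Dlx5, at 0.16, had -0.53 as deposited. The facial median for 12 h over 0 h was -1.87, -0.87 and -0.88 under them, with Hox medians of -0.62, 0.34 and 0.36.

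**Figure D3:**
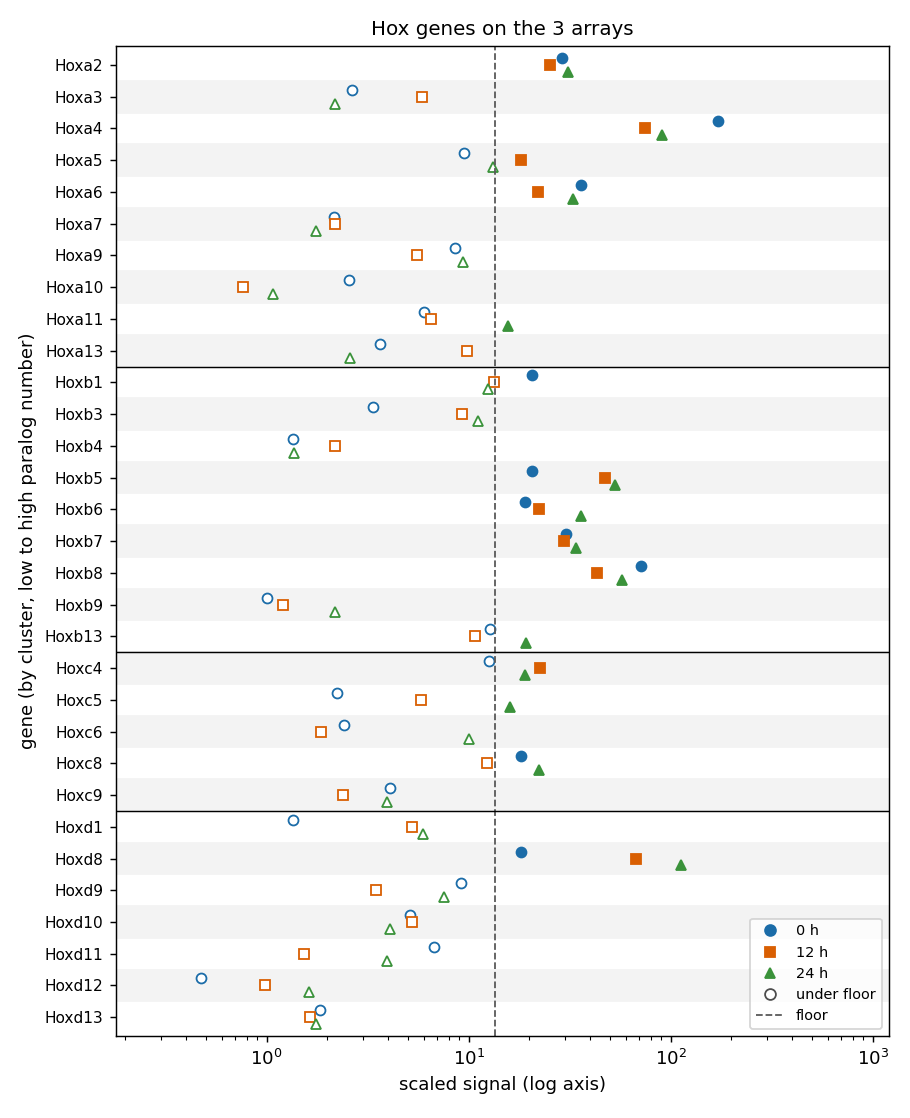
Scaled signal (log axis) of the 31 Hox genes at 0, 12 and 24 h, 1 array each, by cluster, with open symbols under the floor of 13.5 (dashed line). In the Hoxd cluster Hoxd8 alone lies above the floor, and its signals of 18.1, 67.3 and 112 increase from array to array.

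Within the Hox clusters, signals above the floor came mostly from paralog groups 1 to 8, but not mainly from the lowest numbers, which are expressed furthest forward in the body. Hoxa3, Hoxb3, Hoxb4 and Hoxd1 lay under the floor on every array. Most genes above it on all 3 arrays had middle numbers (Hoxb5, Hoxa6, Hoxb6, Hoxb7, Hoxb8 and Hoxd8). Of these, Hoxa6 and Hoxb8 did so by their brightest set only, and the other set of Hoxd8 passed the floor at 12 h alone. Since a set under the floor may bind poorly, these counts give no order of expression along the body axis. Of 19 genes of paralog groups 1 to 8, 13 lay above the floor on at least 1 array, as did 2 of 12 genes of groups 9 to 13. Those 2 were Hoxa11, at 15.7, and Hoxb13, at 19.3, both at 24 h only and both close to the floor. By cluster it was 5 of 10 Hoxa genes, 6 of 9 Hoxb genes, 3 of 5 Hoxc genes and 1 of 7 Hoxd genes.

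Hoxd8, a trunk Hox gene, had signals of 18.1, 67.3 and 112 at 0, 12 and 24 h. Against 0 h it was 3.73-fold higher at 12 h and 6.21-fold higher at 24 h, the highest ratio of any member against 0 h. Its other probe set gave 20.2 at 12 h and lay under the floor at 0 h and 24 h, so the sets disagreed on the last array. Hoxb5, another trunk gene, had 20.7, 47.2 and 53.0 and was 2.28-fold and 2.56-fold higher at 12 h and 24 h than at 0 h, as read by its sole probe set.

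Hoxa2, the selector gene of the second pharyngeal arch, whose loss in mice also causes cleft palate, had 29.0 at 0 h, 25.4 at 12 h and 31.2 at 24 h. Hoxb7 was as even, at 30.3, 29.5 and 33.9. Hoxb6 gave 19.1, 22.3 and 35.8. Differences between arrays stayed under 2-fold for each of these genes.

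The other Hox genes on all 3 arrays, Hoxa4, Hoxa6 and Hoxb8, rested on probe sets with the suffix _r_at, which marks sets whose probes did not meet all of the manufacturer's selection rules. Hoxa4 had 172, 74.7 and 91.0 by its brightest set and was 2.30-fold lower at 12 h than at 0 h, but another of its 4 sets gave 20 at 12 h and 20.6 at 24 h with a signal under the floor at 0 h, and the remaining sets lay under the floor throughout. Hoxa6 gave 36.1, 22.1 and 32.8 and Hoxb8 gave 71.3, 43.2 and 57.6, and in both genes the other set was under the floor on all arrays. Without any set carrying a suffix, the medians of facial factors and Hox genes differed by -1.62 for 12 h over 0 h. Hoxc4 (22.5 at 12 h and 19.1 at 24 h) and Hoxc8 (18.2 at 0 h and 22.4 at 24 h) passed the floor on 2 arrays, and Hoxa5, Hoxa11, Hoxb1, Hoxb13 and Hoxc5 on 1, with no signal over 20.6.

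**Figure D4:**
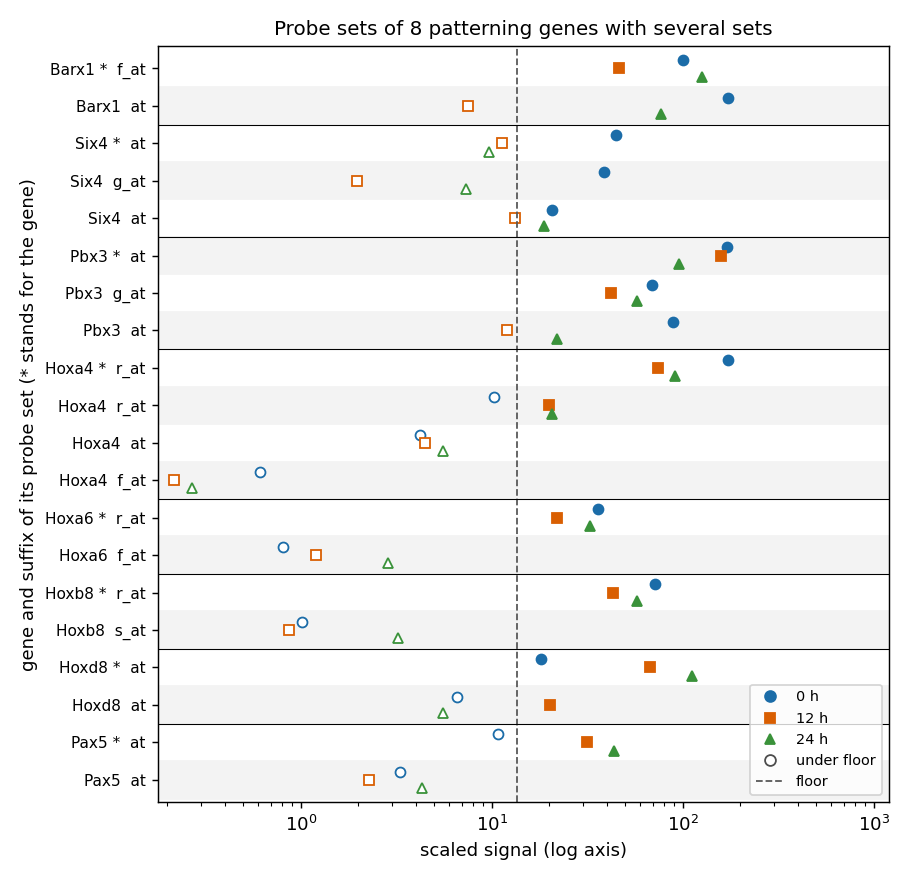
Scaled signal (log axis) at 0, 12 and 24 h of every probe set of 8 members with several sets, with open symbols under the floor of 13.5 (dashed line) and an asterisk at the set that stands for the gene. The 2 sets of Barx1 share their lowest signal at 12 h, whereas most further sets of Hoxa4, Hoxa6 and Hoxb8 lie under the floor.

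Among facial factors, Barx1 and Six4 could be checked with further probe sets. The other set of Barx1 gave 172 at 0 h, a signal under the floor at 12 h and 77.4 at 24 h. Its bounds were 12.7-fold lower for 12 h over 0 h and 5.72-fold higher for 24 h over 12 h, the same directions as the brightest set with wider differences. At 24 h over 0 h the sets had opposite signs, with log2 ratios of 0.32 for the brightest and -1.15 for the other. The other sets of Six4 gave bounds of at least 2.88-fold and at least 1.52-fold lower at 12 h than at 0 h. At 24 h they parted, since one was under the floor and the other had 18.7, against 20.6 at 0 h, a log2 ratio of -0.14. The lower signal of Six4 at 24 h thus rests on 2 of its 3 sets.

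Of the TALE cofactors, Pbx2 had 72.3 at 0 h, a signal under the floor at 12 h and 33.4 at 24 h. It was 2.17-fold lower at 24 h than at 0 h. Pbx3 had 171, 158 and 95.6 by its brightest set, 68.8, 42.4 and 57.6 by another, and by the remaining one 89.3 at 0 h and 22.0 at 24 h with a signal under the floor at 12 h. The log2 ratios of those 3 sets for 12 h over 0 h were -0.11, -0.70 and, as a bound, -2.72. For 24 h over 0 h they were -0.84, -0.26 and -2.02, so Pbx3 had no settled size of difference. Meis1 gave 24.2, 35.1 and 26.4 and Meis2 23.3, 23.1 and 17.8, both less than 2-fold different in each comparison. Meis3 was under the floor on all arrays.

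Of the factors known mainly from other organs, Pax4, a gene of pancreatic endocrine cells, gave 51.3, 46.4 and 56.0, Pax1, of the vertebral column and pharyngeal pouches, 23.2, 18.3 and 24.4, and Lhx1, of kidney and brain, 18.1, 25.2 and 22.0. None of these 3 genes was 2-fold different. Pax5, a B-cell and midbrain factor, lay under the floor at 0 h and had 31.7 at 12 h and 43.7 at 24 h, bounds of 2.35-fold and 3.23-fold higher against 0 h. Its other probe set was under the floor on all 3 arrays. Six5 had 75.3 at 0 h and 43.5 at 24 h, and Msx3 25.6 and 45.4, both with signals under the floor at 12 h. Pitx3, a lens and midbrain factor, passed the floor at 12 h alone, with 24.7. The other 8 genes, Lhx3, Lhx5, Lhx9, Pax2, Pax6, Pax8, Six3 and Six6, were under the floor throughout. Of the antisense RNAs, Dlx6os2 (17.1) and Hoxa11os (19.9) passed it at 12 h only and Dlx1as on no array.

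Other regulators of palate and face showed a mixed picture. Of 29 with a ratio for 12 h over 0 h, 6 were at least 2-fold higher and 8 lower, with a median log2 ratio of -0.19. Of all genes, 17.7% were higher and 27.3% lower by as much. Shox2, a homeobox gene of the anterior palate, was even, at 673, 893 and 799 at 0, 12 and 24 h. Twist2, a basic helix-loop-helix factor of mesenchyme, had 223, 18.4 and 104, and Hand1, of the same class, 81.9 at 0 h, a signal under the floor at 12 h and 50.3 at 24 h. Meox2, a homeobox gene whose loss in mice can cause cleft palate, ran the other way, with 78.3, 236 and 96.1. Homeobox genes outside the families above had 5 of 26 higher and 2 lower at 12 h than at 0 h (median 0.43), among them Zeb1, a repressor of epithelial genes, at 80.4, 292 and 307. These lists share 7 genes on the array, Shox2, Meox1, Meox2, Zeb1, Gsc, Nkx2-5 and Nkx3-2.

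Signals upstream or downstream of facial homeobox genes, a list of ligands, receptors, inhibitors and targets, were also divided. At 12 h against 0 h, 4 of 20 were higher by 2-fold or more and 7 lower (median -0.48), beside 17.7% and 27.3% of all genes. Bmp4, known to induce Msx1 in palate and tooth mesenchyme, had 87.7, 32.9 and 66.0. Id1, a target of bone morphogenetic proteins, had 472, 38.3 and 177. Both had their lowest signal at 12 h, but Id2, a relative of Id1, was even, at 655, 715 and 861. The higher genes of this list were Ptch1, Edn1, Tgfb2 and Tgfb3, and the further lower ones Bmp7, Smo, Wnt5a, Fst and Id3. Regulators of Hox genes, a list of Polycomb subunits, retinoid genes and others, had 4 of 18 higher and 8 lower (median -0.75). The 4 higher genes, Bmi1, Rnf2, Eed and Suz12, all encode Polycomb subunits, as do Cbx2, Phc1 and Phc2 among the lower ones. The other lower genes were Kmt2a, Pknox1, Rarg, Aldh1a2 and Cyp26a1. The Polycomb genes Cbx2 (161, 22.0 and 96.8) and Phc2 (118, under the floor and 63.3) were lowest at 12 h and Rnf2 (60.9, 241 and 91.0) and Eed (95, 306 and 70.4) highest at 12 h. At 24 h against 12 h the 3 lists had 2 of 24 palate and face regulators, 5 of 18 genes of the signal list and 4 of 13 Hox regulators at least 2-fold higher, and 4, 2 and 5 lower. Of all genes, 18.8% were higher and 12.0% lower by as much.

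Marker lists of the cells that the sample could hold also differed between the arrays. Palate mesenchyme markers, of which 18 were measured and 16 lay above the floor on all 3 arrays, had summed signals of 7259.8, 14143 and 13313 at 0, 12 and 24 h. At 12 h over 0 h 10 of the 18 were at least 2-fold higher and 4 lower, beside 17.7% and 27.3% of all genes. Epithelial markers summed to 1195, 2549.8 and 2259, with 10 of 18 above the floor on all 3 arrays, and 5 of 15 with a ratio were at least 2-fold higher and 2 lower at 12 h than at 0 h. The median log2 ratio of these markers was -0.51 for 12 h over 0 h and 1.36 for 24 h over 12 h, both opposite in direction to the sums. The basal keratins Krt5, Krt14 and Krt15 lay under the floor on every array. The other keratins of the list, Krt8 (101, 101 and 441), Krt18 and Krt19, lay above it on all 3, as did Cdh1 and Dsp. A set under the floor may bind poorly, so the absence of basal cells is not shown. Erythroid markers, 5 on the array, summed to 1575 at 12 h and 1496 at 24 h, against 6458 at 0 h. In bulk RNA fewer cells of a type and less RNA per cell cannot be told apart, and the part of cell makeup in the ratios of facial factors was not tested.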

How the data were processed

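The deposited values are intensities, 1 linear signal per probe set and array, never negative and without detection calls. Per the labels, the RNA went through RiboAmp amplification and ENZO biotin labelling before it was hybridized to 1-colour Affymetrix arrays, and Microarray Suite 5.0 and GeneSpring 6.0 were used, without saying which wrote the values. Their 2% trimmed means were 93.7 at 0 h, 58.1 at 12 h and 46.8 at 24 h, so no common scaling was evident. Arrays were scaled to the geometric mean of these over 12422 non-control probe sets (66 controls left out), by factors of 0.676, 1.09 and 1.36, floored at the pooled 40th percentile and taken to log2. Of the 12422, 10833 name 1 gene, 396 several and 1193 none in the platform annotation; 10817 of the 10833, and all 74 members, matched the RefSeq gene table (GRCm38.p6, used for names only). Another 3 sets that name several genes, a Hox gene among them, were not used. A gene is represented by its set of highest mean signal, and 13 members have several.

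No test was run, because each time point had a single array, and their number limits the precision. Genes were counted at least 2-fold different. Every member is accounted for: those above the floor on all 3 arrays or 2-fold different in any comparison are named with their signals. The members and lists were chosen with earlier results of these data known. The steps were tested on simulated data with known changes. Alternatives were 3 scalings, 3 floors, the mean over sets, removal of sets with a suffix, a 3-fold rule and whole facial families. Work was done in Python 3.11.15 with numpy 2.4.6, pandas 2.3.3 and matplotlib 3.10.9.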

Additional observations from a re-analysis of the deposited data

How the results depend on the processing

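No paired analysis was possible because each time point has 1 array, and for the same reason no replicate could be left out. Of 54 alternative counts of members, 28 were within 1.5 times the reported one. The others follow as members at least 2-fold higher or lower. For 12 h over 0 h (3 higher, 12 lower), they were 7 higher and 19 lower with the floor at the 20th percentile, 0 higher with it at the 60th, 12 higher and 22 lower with no floor, 1 higher and 20 lower as deposited, 5 higher after median centring, 6 higher after quantile normalization and 1 higher at 3-fold. Over all genes, 19.6% were higher and 28.9% lower with the floor at the 20th percentile, and 20.3% and 29.8% with no floor. As deposited these shares were 9.06% and 44.8%. Genes higher made 18.4% with the floor at the 60th percentile, 26.2% after median centring, 21.9% after quantile normalization and 9.56% at 3-fold. For 24 h over 12 h (8 higher, 1 lower), they were 5 lower with the floor at the 20th percentile, 4 higher with it at the 60th, 18 higher and 7 lower with no floor, 2 lower as deposited, 3 lower after median centring, 2 lower after quantile normalization and 4 higher at 3-fold. Among all genes, 23.0% were higher and 15.1% lower with no floor. The share lower was 14.0% with the floor at the 20th percentile and 18.5% for unscaled values. Quantile normalization gave 13.8% lower and median centring 17.8%. The share higher was 14.9% with the floor at the 60th percentile and 7.41% at 3-fold. For 24 h over 0 h (4 higher, 6 lower), they were 9 higher and 10 lower with the floor at the 20th percentile, 1 higher with it at the 60th, 13 higher and 13 lower with no floor, 2 higher and 19 lower as deposited and 2 higher at 3-fold. Over all genes, 16.9% were higher and 20.1% lower with the floor at the 20th percentile, and 17.9% and 21.3% with no floor. As deposited these shares were 4.50% and 49.3%. Genes higher made 13.2% with the floor at the 60th percentile and 6.63% at 3-fold. A lower floor reads ratios between weaker signals, and more genes then have one. Of 27 alternative differences between the medians of facial factors and Hox genes, 23 kept their sign and moved by less than 0.5. For 12 h over 0 h (-1.08), sets with a suffix left out gave -1.62, and every alternative was negative. The smallest difference, -0.76, came with whole facial families. For 24 h over 0 h (-0.73), the floor at the 20th percentile gave -1.26, again with every alternative negative. Whole facial families again gave the smallest difference, -0.40. For 24 h over 12 h (0.27), floors at the 20th and 60th percentile gave -0.09 and -0.08. Apart from the effect of a floor on which genes have a ratio, the cause of these shifts was not tested.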

Other observations

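The 3 probe sets that name a pair of Hox genes each, and so belong to no single gene, held 1 signal above the floor on all arrays, that of the set shared by Hoxb8 and Hoxb7, with signals of 40.8, 24.7 and 37.6 on the arrays of 0, 12 and 24 h. For Hoxd4 and Hoxd3 together, 1 set passed the floor at 12 h alone, at 14.3, and the other on no array.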
